A study of Mus musculus with 15 samples.

Results

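The transcripts described here encode proteins that the mammary epithelium secretes or displays at its apical surface: the milk proteins Csn2, Csn3, Wap and Lalba, the milk fat globule proteins Mfge8, Xdh and Btn1a1, the mucin Muc1, and the iron-handling defence proteins Ltf and Lcn2. They were chosen by name, and each was represented by the probe set annotated with that symbol alone and, where there was more than 1, by the one with the highest mean intensity over all 15 arrays. Each of 9 genes had exactly 1 such probe set, so the intensities selected nothing among them. The names themselves were chosen with earlier results of these data known. Lalba was annotated only on a probe set that names more than 1 gene, and it was not analysed here. The 9 measured genes are part of 19938 genes with a probe set of their own. Mean intensity over the 15 arrays ran from 25.5 for Wap to 3324 for Lcn2.

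The cells came from the mammary epithelium of female mice aged 8 weeks and were harvested while proliferating in culture. Each of 5 groups had 3 Affymetrix Mouse Gene arrays, 1 per sample: p53- Rb- Myc+ cells lacked p53 and Rb and were given MYC, p53- Myc+ cells lacked p53 and were given MYC, p53- Rb- cells lacked p53 and Rb, p53- cells lacked p53 alone, and WT cells carried neither deletion nor added MYC. Cre recombinase delivered by adenovirus made the deletions and a retrovirus delivered MYC. The labels do not say whether WT cells received a control virus or whether replicates of a group came from different animals. The p-values therefore reflect only the scatter among the arrays of a group, which may be technical. All groups shared a medium with horse serum, insulin, hydrocortisone, EGF and cholera toxin. Prolactin is not among the additives the labels name.

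Casein and whey protein genes are induced in the secretory epithelium during pregnancy, when prolactin acts through STAT5 together with insulin and glucocorticoid. Milk fat leaves the cell as droplets wrapped in apical membrane, and butyrophilin (Btn1a1), xanthine oxidoreductase (Xdh), lactadherin (Mfge8) and Muc1 are proteins of that coat. Lactoferrin (Ltf) binds iron and lipocalin 2 (Lcn2) binds the siderophores with which bacteria take iron up. Both are also stored in the granules of neutrophils.

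The start regions of 7 of the 10 genes were in the RefSeq promoter table (assembly GRCm38.p6), each window running from 250 bases before the start to 50 bases after it. Csn3, Xdh and Btn1a1 had no window there and were not searched for motifs. Of the 7 windows, 4 are printed: Csn2 and Muc1 hold the only matches to the motifs searched, and Ltf and Lcn2 differ in which groups they were low. No level or change given below rests on these sequences. Capitals mark a match, and lower case is all other sequence. The Csn2 window is chr5:87699376-87699675 on the minus strand, the Muc1 window chr3:89228806-89229105 on the plus strand, the Ltf window chr9:111019042-111019341 on the plus strand and the Lcn2 window chr2:32387690-32387989 on the minus strand.
Csn2: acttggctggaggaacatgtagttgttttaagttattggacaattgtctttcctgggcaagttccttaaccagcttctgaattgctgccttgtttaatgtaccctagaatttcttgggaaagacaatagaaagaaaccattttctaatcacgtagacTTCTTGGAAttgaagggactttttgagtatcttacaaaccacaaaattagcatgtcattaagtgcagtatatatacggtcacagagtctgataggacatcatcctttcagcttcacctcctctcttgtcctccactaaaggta
Muc1: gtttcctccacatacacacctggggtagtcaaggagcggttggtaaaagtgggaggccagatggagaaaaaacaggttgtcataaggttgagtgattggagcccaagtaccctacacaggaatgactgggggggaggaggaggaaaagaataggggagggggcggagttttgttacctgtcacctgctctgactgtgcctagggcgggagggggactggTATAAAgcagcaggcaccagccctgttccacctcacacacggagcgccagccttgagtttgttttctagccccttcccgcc
Ltf: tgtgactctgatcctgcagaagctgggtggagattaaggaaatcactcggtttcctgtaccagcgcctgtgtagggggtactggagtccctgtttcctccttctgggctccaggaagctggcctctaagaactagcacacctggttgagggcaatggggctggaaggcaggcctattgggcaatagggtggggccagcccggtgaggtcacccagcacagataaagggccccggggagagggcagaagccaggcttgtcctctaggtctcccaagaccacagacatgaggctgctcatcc
Lcn2: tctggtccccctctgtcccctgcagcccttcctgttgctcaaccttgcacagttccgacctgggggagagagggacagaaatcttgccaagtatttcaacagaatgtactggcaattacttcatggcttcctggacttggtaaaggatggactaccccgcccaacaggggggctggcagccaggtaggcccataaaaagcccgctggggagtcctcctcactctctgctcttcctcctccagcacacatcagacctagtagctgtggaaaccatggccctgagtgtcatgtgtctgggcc

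Both strands of each window were searched for 5 motifs. The GAS motif TTCNNNGAA, which STAT5 and STAT3 read, matched the Csn2 window from -93 to -85 relative to the start and none of the other 6 windows. It was present in 8.30% of 32851 windows of that length. The TATA box TATAAA matched the Muc1 window from -31 to -26 and no other of the 7, against 13.6% of all windows. The E-box CACGTG, read by MYC (7.15% of all windows), the kappa B-like site (0.411%) and the C/EBP-like site (0.183%) matched none of the 7. A match is a description of the letters in the window, and the absence of one says nothing about binding elsewhere.

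Levels are deposited intensities on a linear scale, and changes are log2 fold changes ± SE of intensity plus 16 from 1 limma fit of all 15 arrays. A gene is said to have risen or fallen where its p, adjusted over all 19938 genes, was below 0.05. The added 16 shrinks the change of dim probe sets, and levels of different probe sets cannot be ranked against each other. As a guide to dim values, 3 Y-linked genes, which cells of female mice lack, had intensities between 3.50 and 27.1 over the 15 arrays (median 11.8). Array medians over all probe sets lay between 41.3 and 54.9.

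The labels were checked against Rb1, Myc and epithelial markers; the p53 gene was not analysed here. The Rb1 probe set averaged 18.7 ± 1.09 in p53- Rb- Myc+, 36.4 ± 10.8 in p53- Myc+, 57.4 ± 6.07 in p53- Rb-, 161 ± 17.3 in p53- and 92.8 ± 9.57 in WT arrays (SD, n = 3 each). It fell with the Rb- label in p53- Rb- relative to p53- arrays (-1.27 ± 0.16, adjusted p = 1.64e-05) and in p53- Rb- Myc+ relative to p53- Myc+ arrays (-0.57 ± 0.16, adjusted p = 0.0453). Yet it was lower in p53- Myc+ arrays, which do not carry the Rb- label, than in p53- Rb- arrays, which do (-0.50 ± 0.16, adjusted p = 0.0195), so the probe set does not separate the labels by itself. The Myc probe set was lower in arrays labelled Myc+, at 96.3 ± 10.8 in p53- Rb- Myc+ and 128 ± 29.5 in p53- Myc+ arrays, against 856 ± 107 in p53- Rb-, 929.8 ± 105 in p53- and 888 ± 47.9 in WT arrays. It therefore gives no support to the Myc+ label, and whether it reads the retroviral transcript is not given in the sources used here. Groups are named by their labels throughout. Summed over 9 luminal epithelial markers, intensity was 609 to 689 in p53- Rb- Myc+ and 167 to 237 in p53- Myc+ arrays, against 14891 to 15667 in p53- Rb-, 14543 to 16618 in p53- and 16255 to 16425 in WT arrays. In every array labelled Myc+, 7 of these 9 markers were at or below the highest Y-linked value; Epcam, for one, averaged 11.6 ± 2.57 in p53- Rb- Myc+ and 10.3 ± 4.13 in p53- Myc+ arrays, against 1627 ± 133 in WT arrays. The 6 basal markers summed to 1726 to 1960 in p53- Rb- Myc+, 2163 to 2517 in p53- Myc+, 8835 to 8994 in p53- Rb-, 5752 to 6984 in p53- and 8273 to 8578 in WT arrays. In the arrays labelled Myc+ nearly all of the basal sum was Acta2, a smooth muscle actin (1807 ± 121 in p53- Rb- Myc+ and 2321 ± 199 in p53- Myc+, against 3001 ± 569 in p53- Rb-, 1593 ± 426 in p53- and 1993 ± 112 in WT arrays). Not every marker was bright without the Myc+ label: Oxtr averaged 24.8 ± 6.19 in p53- and 32.4 ± 14.9 in WT arrays, and Elf5 35.1 ± 11.1 in p53- and 132 ± 65.2 in WT arrays.

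Csn3, which encodes the casein that coats and stabilises casein micelles, was bright in every array without the Myc+ label and dim in every array with it. Its intensities were 16.7, 29.5 and 21.8 in p53- Rb- Myc+ arrays and 12, 10.7 and 11.8 in p53- Myc+ arrays. They were 2665, 2411 and 3739 in p53- Rb-, 2435, 2827 and 2143 in p53- and 1316, 1494 and 1081 in WT arrays. No array labelled Myc+ exceeded 29.5 and no other array was below 1081. Csn3 fell in p53- Myc+ relative to p53- arrays (-6.49 ± 0.19, adjusted p = 2.02e-17) and in p53- Rb- Myc+ relative to p53- Rb- arrays (-6.24 ± 0.19, adjusted p = 4.29e-17). The dim values lie in or near the range of the Y-linked genes, so the size of these changes depends on the added constant, with -7.62 and -5.06 for p53- Myc+ against p53- arrays when 1 and 64 were added. In bulk RNA, fewer cells of a type and less RNA per cell cannot be told apart, here or in any result below.

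Loss of p53 went with more Csn3. The 3 p53- arrays (2143 to 2827) and the 3 p53- Rb- arrays (2411 to 3739) all lay above the 3 WT arrays (1081 to 1494). The change was 0.92 ± 0.19, adjusted p = 0.000885 for p53- against WT and 1.16 ± 0.19, adjusted p = 0.000236 for p53- Rb- against WT arrays. Between p53- Rb- and p53- arrays Csn3 differed by 0.23 ± 0.19 (95% interval -0.15 to 0.62, adjusted p = 0.4), and their values overlapped.

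Csn2, the gene of beta-casein, a main casein of mouse milk, was called in none of the comparisons. Its intensities were 132, 131 and 113 in p53- Rb- Myc+, 128, 133 and 149.6 in p53- Myc+, 113, 96.9 and 111 in p53- Rb-, 126, 78.5 and 116 in p53- and 107, 112 and 90.8 in WT arrays. The 3 p53- Myc+ arrays lay above all 9 arrays without the Myc+ label. The change in p53- Myc+ relative to p53- arrays was 0.33 ± 0.17 (95% interval -0.01 to 0.68, adjusted p = 0.138). It was called when arrays were centred on their median (0.53, adjusted p = 0.0155) or quantile normalized (0.45, adjusted p = 0.0432). Csn2 and Csn3 are casein genes on the same chromosome, and their group means spanned 0.36 and 6.72 log2 units.

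Wap encodes the whey acidic protein, a main whey protein of rodent milk, and was dim in all groups. It had 38.2, 26 and 35.3 in p53- Rb- Myc+, 21.7, 26.6 and 33.6 in p53- Myc+, 17.5, 23.9 and 24 in p53- Rb-, 28.3, 27 and 38.3 in p53- and 13.8, 15 and 13.4 in WT arrays. All p53- Rb- and WT arrays were at or below the highest Y-linked value. Wap rose in p53- relative to WT arrays (0.64 ± 0.16, adjusted p = 0.00552), where the 3 p53- arrays lay above the 3 WT arrays, but under quantile normalization the call was lost (0.42, adjusted p = 0.0679). The change in p53- Rb- Myc+ relative to p53- Rb- arrays was 0.38 ± 0.16, adjusted p = 0.0776. It was called with 1 added before the log (0.58, adjusted p = 0.0493), with median centring (0.44, adjusted p = 0.0445), with array weights (0.51, adjusted p = 0.00169) and without p53- Rb- Myc+ replicate 2 (0.48, adjusted p = 0.0479).

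**Figure D1:**
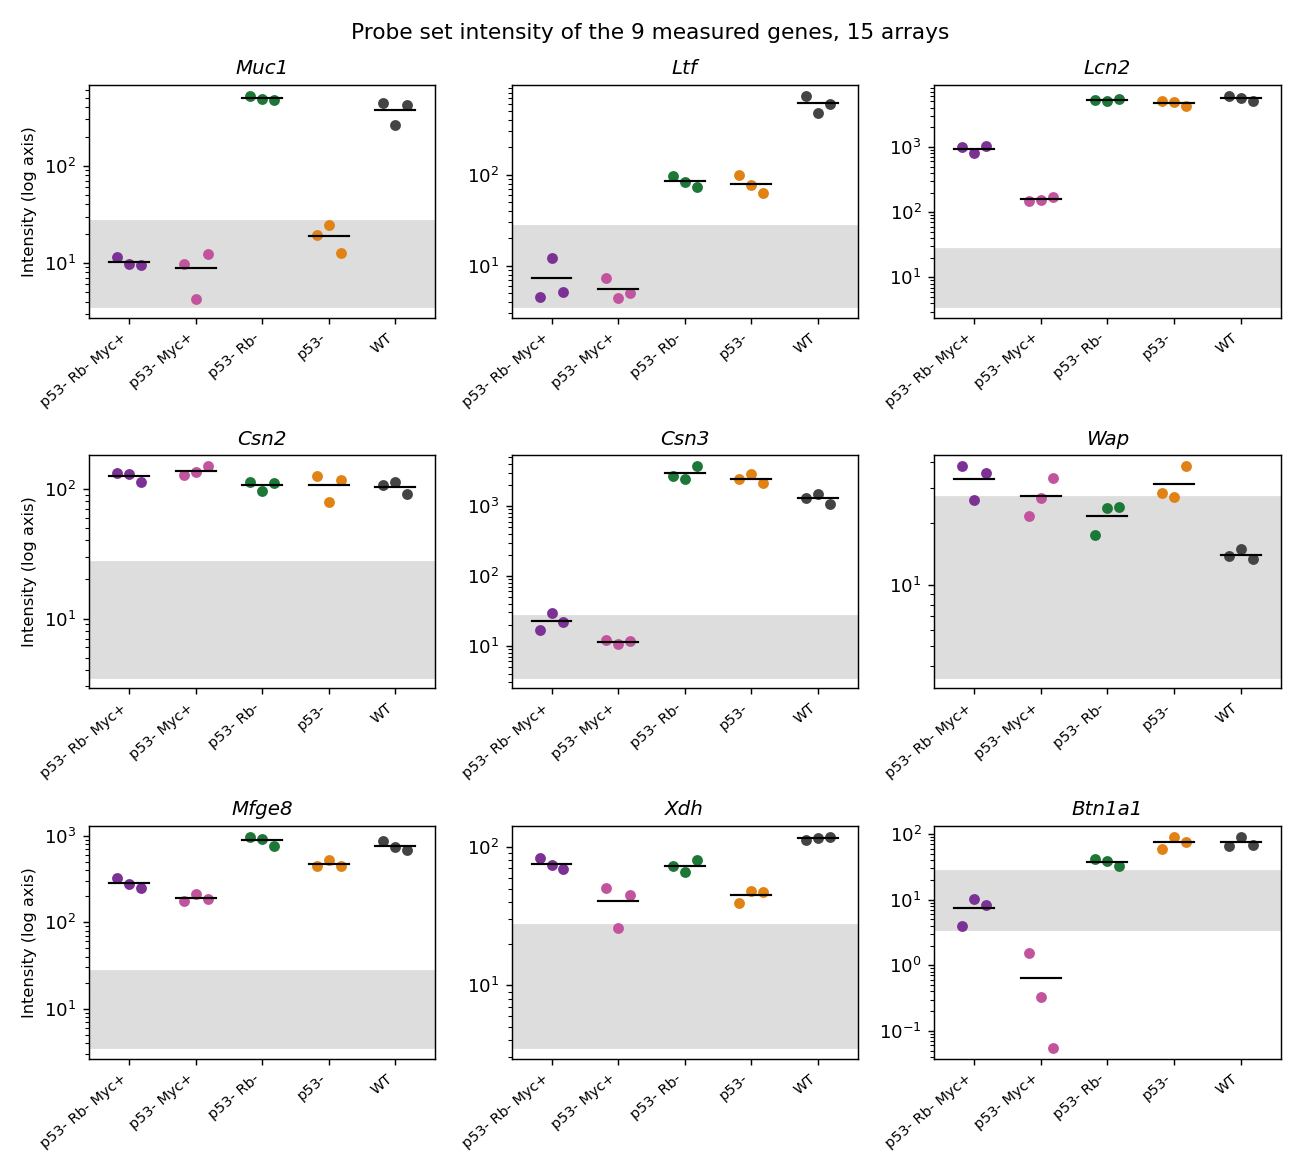
Probe set intensity (vertical log axis) of the 9 measured genes in the 15 arrays; points are arrays, black lines the means of the 3 arrays of a group, and the grey band the range of 3 Y-linked genes (3.50 to 27.1). Csn3 was between 1081 and 3739 in the 9 arrays without the Myc+ label and at most 29.5 in the 6 with it, whereas Csn2 lay between 78.5 and 149.6 in all 15.

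Among the milk fat globule genes, Mfge8 encodes lactadherin, which binds phosphatidylserine and serves the clearance of apoptotic cells. Its intensities were 321, 278 and 252 in p53- Rb- Myc+, 176, 213 and 187 in p53- Myc+, 979.6, 914 and 764 in p53- Rb-, 449.9, 528 and 447 in p53- and 873, 738 and 687 in WT arrays. The p53- arrays lay below the WT arrays and below the p53- Rb- arrays without overlap. Mfge8 fell in p53- relative to WT arrays (-0.67 ± 0.16, adjusted p = 0.00392) and rose in p53- Rb- relative to p53- arrays (0.87 ± 0.16, adjusted p = 0.000638). Against WT, the p53- Rb- arrays differed by 0.21 ± 0.16 (95% interval -0.13 to 0.54, adjusted p = 0.448). With the Myc+ label Mfge8 fell in cells without p53 (-1.24 ± 0.16, adjusted p = 1.82e-06) and in cells without p53 and Rb (-1.59 ± 0.16, adjusted p = 4.56e-08). Between p53- Rb- Myc+ and p53- Myc+ arrays, which did not overlap, it differed by 0.53 ± 0.16, adjusted p = 0.069. That difference was called with 64 added (0.44, adjusted p = 0.0308), among genes at or above the median level (adjusted p = 0.033) and with array weights (0.63, adjusted p = 0.00902).

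Xdh encodes the xanthine oxidoreductase that purine breakdown uses and that milk fat droplets need for their envelope. Its intensities were 83.5, 73.9 and 69.1 in p53- Rb- Myc+, 50.5, 25.9 and 45.2 in p53- Myc+, 72.8, 66.4 and 80.4 in p53- Rb-, 39.6, 47.7 and 47 in p53- and 112, 117 and 119 in WT arrays. WT arrays were above all others, both Rb- groups lay between 66.4 and 83.5, and the p53- Myc+ and p53- arrays lay between 25.9 and 50.5. Xdh fell in p53- relative to WT arrays (-1.12 ± 0.17, adjusted p = 5.84e-05). It rose with the Rb- label, by 0.55 ± 0.17, adjusted p = 0.0249 in p53- Rb- relative to p53- arrays and by 0.72 ± 0.17, adjusted p = 0.0117 in p53- Rb- Myc+ relative to p53- Myc+ arrays. The Myc+ label gave -0.13 ± 0.17, adjusted p = 0.613 for p53- Myc+ against p53- and 0.04 ± 0.17, adjusted p = 0.888 for p53- Rb- Myc+ against p53- Rb- arrays.

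These Xdh calls with the Rb- label were near the threshold and depended on single arrays. For p53- Rb- against p53- arrays, adjusted p was 0.103 and 0.0626 when p53- replicate 1 or 3 was left out and 0.0664 and 0.103 when p53- Rb- replicate 1 or 3 was left out, with changes from 0.49 to 0.58. For p53- Rb- Myc+ against p53- Myc+ arrays, it was 0.0932 without p53- Myc+ replicate 2, 0.0701 without p53- Rb- Myc+ replicate 1 and 0.0648 when only these 2 groups were fitted. Xdh also fell in p53- Rb- relative to WT arrays (-0.57 ± 0.17, adjusted p = 0.0274), and there adjusted p was between 0.0524 and 0.111 when any 1 WT array, p53- Rb- replicate 1 or p53- Rb- replicate 2 was left out, and 0.0631 with 1 added.

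Btn1a1, whose butyrophilin anchors the envelope to the fat droplet together with Xdh, had 3.9, 10.1 and 8.31 in p53- Rb- Myc+, 1.52, 0.332 and 0.0543 in p53- Myc+, 41.2, 39.3 and 33 in p53- Rb-, 59.2, 91.5 and 75.8 in p53- and 65.6, 92 and 68.7 in WT arrays. Neither p53- arrays nor WT arrays stood above the other, and the p53- Rb- arrays lay below both. Btn1a1 fell in p53- Rb- relative to p53- arrays (-0.75 ± 0.17, adjusted p = 0.00353) and relative to WT arrays (-0.75 ± 0.17, adjusted p = 0.00497), opposite in sign to Mfge8 and Xdh in p53- Rb- against p53- arrays. With 1 added before the log the adjusted p of these 2 calls was 0.0713 and 0.0827. Btn1a1 was below the highest Y-linked value in all 6 arrays labelled Myc+, with changes of -2.45 ± 0.17, adjusted p = 8.3e-11, in p53- Myc+ relative to p53- arrays and -1.21 ± 0.17, adjusted p = 5.76e-06, in p53- Rb- Myc+ relative to p53- Rb- arrays. The size of both depends on the added constant, and over the alternatives they ran from -5.63 to -1.10 and from -2.28 to -0.51.

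Muc1, a transmembrane mucin of the apical surface, was high in p53- Rb- and WT arrays and low in the other 3 groups. Its intensities were 11.5, 9.77 and 9.48 in p53- Rb- Myc+ and 9.7, 4.26 and 12.4 in p53- Myc+ arrays. The p53- Rb- arrays had 529, 485 and 477, the p53- arrays 19.4, 24.5 and 12.8 and the WT arrays 439, 265 and 419.6. All 9 arrays of the low groups were at or below the highest Y-linked value. Muc1 fell in p53- relative to WT arrays (-3.47 ± 0.19, adjusted p = 7.22e-11) and rose in p53- Rb- relative to p53- arrays (3.89 ± 0.19, adjusted p = 1.93e-11). Because the p53- arrays were dim, the size of these changes depends on the added constant: with 1 and 64 added they were -4.25 and -2.38 for p53- against WT, and 4.69 and 2.76 for p53- Rb- against p53- arrays. The p53- Rb- arrays were all above the WT arrays, by 0.42 ± 0.19 (95% interval 0.03 to 0.82, adjusted p = 0.143). That last difference was called with 64 added (0.38, adjusted p = 0.0461) and with array weights (0.44, adjusted p = 0.0423).

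With the Myc+ label and without Rb, Muc1 fell in p53- Rb- Myc+ relative to p53- Rb- arrays (-4.29 ± 0.19, adjusted p = 3.02e-14). In p53- Myc+ relative to p53- arrays, where both groups were already dim, the change was -0.49 ± 0.19, adjusted p = 0.0489. With 1 added it was -1.08 and the call was kept (adjusted p = 0.0182). The call ended in 15 of 24 alternatives, with changes between -0.53 and -0.19. Among these 15 were 64 added (-0.19, adjusted p = 0.293), both scalings (adjusted p = 0.265 with median centring and 0.437 with quantile normalization) and the removal of p53- replicate 1 (0.114), p53- replicate 2 (0.181), p53- Myc+ replicate 1 (0.0705), p53- Myc+ replicate 2 (0.209) or any 1 array labelled Rb- (0.0544 to 0.0596). Muc1 did not differ detectably between p53- Rb- Myc+ and p53- Myc+ arrays (0.10 ± 0.19, 95% interval -0.30 to 0.49, adjusted p = 0.886).

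Lcn2, which starves bacteria of iron, was bright in the 9 arrays without the Myc+ label and lower, to differing degrees, with it. Its intensities were 986, 792 and 1040.4 in p53- Rb- Myc+ and 151, 153 and 169 in p53- Myc+ arrays. They were 5161, 5049 and 5474 in p53- Rb-, 4974, 4834 and 4296 in p53- and 6119.8, 5631 and 5034 in WT arrays. The p53- Rb- Myc+ and p53- Myc+ arrays overlapped neither with each other nor with the rest, and none of the 3 comparisons among the other groups was called. Lcn2 fell in p53- Myc+ relative to p53- arrays (-4.76 ± 0.15, adjusted p = 1.42e-16) and in p53- Rb- Myc+ relative to p53- Rb- arrays (-2.47 ± 0.15, adjusted p = 1.17e-11). Within the arrays labelled Myc+ it rose with the Rb- label (2.45 ± 0.15, adjusted p = 1.87e-10). Lcn2 was above the highest Y-linked value in all 6 arrays labelled Myc+.

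Ltf, the gene of the iron-binding milk and granule protein lactoferrin, was highest in WT arrays. Its intensities were 4.58, 12.2 and 5.19 in p53- Rb- Myc+, 7.32, 4.44 and 5.06 in p53- Myc+, 97.4, 82.8 and 73.6 in p53- Rb-, 98.3, 77.8 and 63.8 in p53- and 743, 483 and 607 in WT arrays. The 3 WT arrays lay above all p53- and p53- Rb- arrays, which in turn lay above all arrays labelled Myc+. Ltf fell in p53- relative to WT (-2.70 ± 0.19, adjusted p = 1.59e-09) and in p53- Rb- relative to WT arrays (-2.62 ± 0.19, adjusted p = 2.83e-09). The p53- Rb- and p53- arrays overlapped, and differed by 0.08 ± 0.19 (95% interval -0.31 to 0.46, adjusted p = 0.806). With the Myc+ label Ltf fell to values below the highest Y-linked value, both in p53- Myc+ relative to p53- arrays (-2.14 ± 0.19, adjusted p = 3.32e-09) and in p53- Rb- Myc+ relative to p53- Rb- arrays (-2.12 ± 0.19, adjusted p = 4.16e-09). At such dim values the size depends on the added constant. Over the alternatives these 2 changes ran from -3.62 to -1.04 and from -3.47 to -1.06.

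Counted over the 9 genes, p53- against WT arrays had 4 that fell (Muc1, Ltf, Xdh and Mfge8) and 2 that rose (Csn3 and Wap). Of all 19938 genes, 9.72% fell and 19.3% rose in that comparison. The median change was -0.25 for the 9 genes and 0.12 for all genes. In p53- Rb- against p53- arrays 3 rose (Muc1, Mfge8 and Xdh) and 1 fell (Btn1a1), where 9.36% of all genes rose and 10.4% fell, with medians of 0.15 and -0.08. In p53- Rb- against WT arrays 1 rose (Csn3) and 3 fell (Ltf, Btn1a1 and Xdh), where 10.8% of all genes rose and 3.75% fell. The comparisons of p53- and of p53- Rb- with WT share the WT arrays, and those involving p53- share the p53- arrays. The 9 genes and the lists below were chosen with earlier results of these data known. Their shares beside those of all genes therefore describe chosen sets and are not an independent test.

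With the Myc+ label 6 of the 9 genes fell and 0 rose, both in p53- Myc+ against p53- and in p53- Rb- Myc+ against p53- Rb- arrays, namely Csn3, Lcn2, Ltf, Btn1a1, Mfge8 and Muc1. All genes had 20.2% falling and 13.1% rising in p53- Myc+ against p53- arrays, and 18.7% falling and 17.6% rising in p53- Rb- Myc+ against p53- Rb- arrays. The medians of the 9 genes were -1.24 and -1.59 in these 2 comparisons, against -0.09 and 0.12 for all genes. After median centring or quantile normalization, 5 fell and 1 (Csn2) rose in p53- Myc+ against p53- arrays, where Muc1 lost its call. In p53- Rb- Myc+ against p53- Rb- arrays 6 fell under both, and 1 (Wap) rose after median centring. All 9 luminal markers fell in both comparisons. Of the 6 basal markers, 4 fell and 1 (Acta2) rose in p53- Myc+ against p53- arrays, and 5 fell and 0 rose in p53- Rb- Myc+ against p53- Rb- arrays. The part of these cell types in the changes of the 9 genes was not tested. In p53- Rb- Myc+ against p53- Myc+ arrays 2 of the 9 rose (Lcn2 and Xdh) and 0 fell, where 3.29% of all genes rose and 1.4% fell. At an unadjusted p below 0.05 in the limma fit, 0 of the 9 rose and 6 fell in p53- Myc+ against p53- arrays. There, 8196 of all 19938 genes passed in either direction. In p53- Rb- Myc+ against p53- Rb- arrays 1 (Wap) rose and 6 fell, where 8967 of all genes passed. In p53- Rb- Myc+ against p53- Myc+ arrays 5 rose and 0 fell, where 2968 of all genes passed.

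The way arrays were scaled moved the balance of rising and falling genes over the whole array. Of the genes called for p53- against WT, 66.5% rose as deposited, 52.5% after median centring and 51.6% after quantile normalization. They were 47.3%, 55.8% and 50.5% for p53- Rb- against p53-, and 48.5%, 57.1% and 55.9% for p53- Rb- Myc+ against p53- Rb- arrays. The same shares were 74.2%, 65.0% and 58.8% for p53- Rb- against WT, 39.2%, 59.2% and 56.2% for p53- Myc+ against p53-, and 70.2%, 55.8% and 59.4% for p53- Rb- Myc+ against p53- Myc+ arrays. The median change of all genes moved with them, to 0.11 from the deposited -0.09 for p53- Myc+ against p53- arrays with either scaling, and to -0.02 from 0.12 for p53- against WT arrays with quantile normalization. Changes of single genes should be read against these medians. The scaling altered calls of Wap, Csn2 and Muc1 as given above and of no other of the 9 genes.

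**Figure D2:**
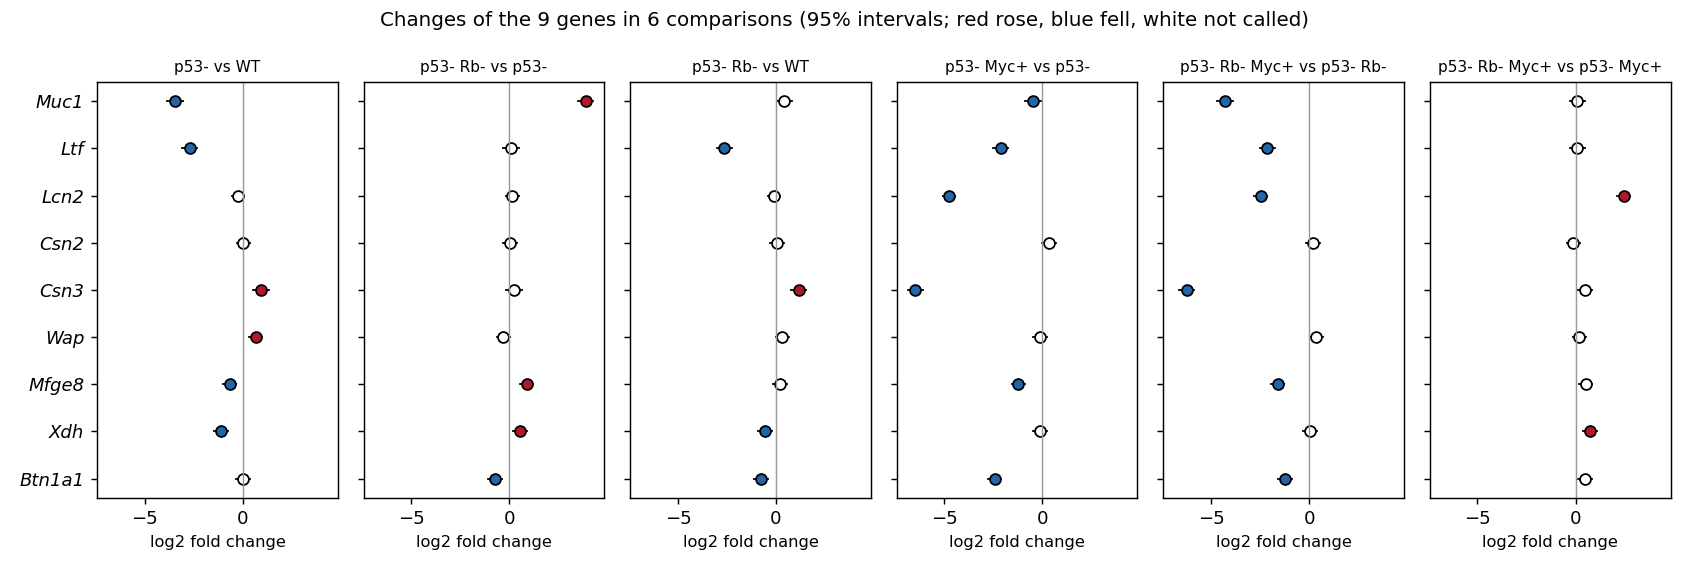
Log2 fold change (horizontal axes) of the 9 genes in 6 comparisons; points are changes, bars 95% intervals, red points rose, blue fell and white were not called. Csn3, Lcn2, Ltf, Btn1a1, Mfge8 and Muc1 are blue in both comparisons of the Myc+ label, and Muc1 has the widest swing between p53- against WT (-3.47) and p53- Rb- against p53- arrays (3.89). The Muc1 call in p53- Myc+ against p53- arrays, both dim, was lost in 15 of 24 alternatives.

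Whether the change with the Rb- label was the same with and without the Myc+ label was tested as the difference of both Rb comparisons, the change in p53- Rb- Myc+ against p53- Myc+ arrays minus the change in p53- Rb- against p53- arrays. It was called for 3 of the 9 genes. Muc1 had -3.79 ± 0.27, adjusted p = 3.3e-09: its change with the Rb- label was 0.10 ± 0.19 with the Myc+ label and 3.89 ± 0.19 without it. In 3 of these 4 groups, all but p53- Rb-, Muc1 was at or below the highest Y-linked value, so the first of these changes compares 2 groups at background and the size of the difference depends on the constant, at -4.39 with 1 added and -2.73 with 64 added. Lcn2 had 2.30 ± 0.22, adjusted p = 2.68e-07, the opposite case, with 2.45 ± 0.15 with the Myc+ label and 0.15 ± 0.15 without it. Btn1a1 had 1.24 ± 0.24, adjusted p = 0.00154, with 0.49 ± 0.17 (adjusted p = 0.128) with the Myc+ label and -0.75 ± 0.17 without it. Of all genes, 8.78% had a difference above 0 that was called and 4.86% one below 0. Their called differences were above 0 in 64.4% as deposited, 45.1% after median centring and 53.7% after quantile normalization, while the calls of Muc1, Lcn2 and Btn1a1 held under both. The intervals of the other 6 differences included 0 except that of Wap (0.02 to 0.98, adjusted p = 0.158); for Mfge8 the difference was -0.35 ± 0.23 and for Xdh 0.17 ± 0.24.

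**Figure D3:**
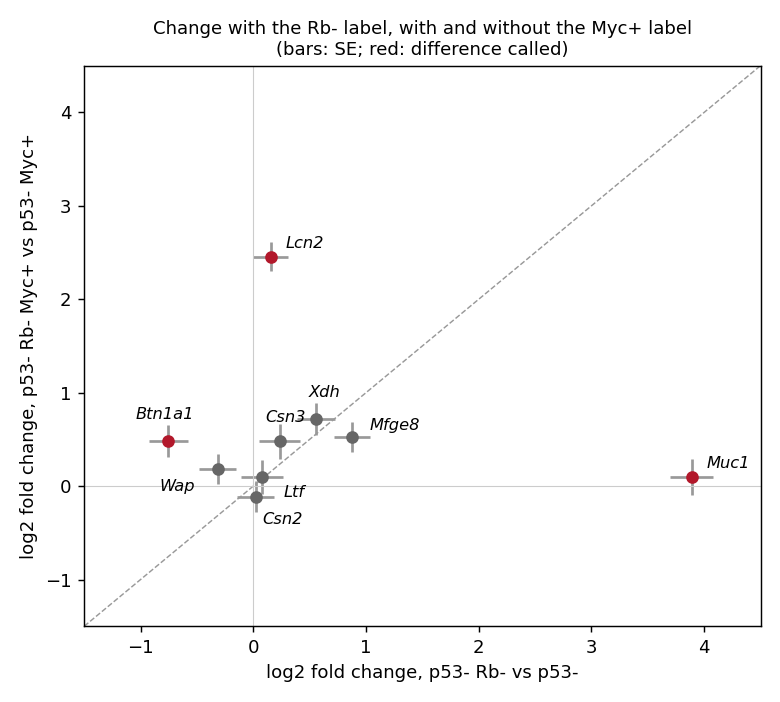
Log2 fold change with the Rb- label among arrays labelled Myc+ (vertical axis) against the same change among arrays without that label (horizontal axis) for the 9 genes; bars are SE, the dashed line marks equal changes, and red points have a called difference. Lcn2 (2.45 against 0.15) and Btn1a1 (0.49 against -0.75) lie above the line and Muc1 (0.10 against 3.89) far below it.

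Ordering the 5 group means of each gene gave neighbours that differed and neighbours that did not. For Muc1 the order was p53- Rb-, WT, p53-, p53- Rb- Myc+ and p53- Myc+, and the step between WT and p53- was the sole one called. Ltf ran from WT to p53- Rb-, p53-, p53- Rb- Myc+ and p53- Myc+, with the step below WT and that between p53- and p53- Rb- Myc+ (-2.04 ± 0.19, adjusted p = 8.25e-09) called. Lcn2 had the same order as Ltf, and its 2 last steps were called, p53- Rb- Myc+ against p53- (-2.31 ± 0.15, adjusted p = 4.24e-11) and p53- Myc+ below p53- Rb- Myc+. Csn3 ran from p53- Rb- to p53-, WT, p53- Rb- Myc+ and p53- Myc+, and differed between p53- and WT and between p53- Rb- Myc+ and WT (-5.09 ± 0.19, adjusted p = 1.02e-15). Mfge8 ran from p53- Rb- to WT, p53-, p53- Rb- Myc+ and p53- Myc+, with called steps between WT and p53- and between p53- Rb- Myc+ and p53- (-0.71 ± 0.16, adjusted p = 0.00142).

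For Xdh the order was WT, p53- Rb- Myc+, p53- Rb-, p53- and p53- Myc+; p53- Rb- Myc+ was below WT (-0.53 ± 0.17, adjusted p = 0.0138), and p53- was below p53- Rb-. Btn1a1 ran from WT to p53-, p53- Rb-, p53- Rb- Myc+ and p53- Myc+, with the steps on either side of p53- Rb- called. No step between neighbours was called for Csn2 or for Wap, although Wap was higher in p53- Rb- Myc+ than in WT arrays, the ends of its order (0.70 ± 0.16, adjusted p = 0.00122). Genes differing in either direction over the whole array made up 44.2% for p53- Myc+ against WT, 45.4% for p53- Rb- Myc+ against WT, 36.6% for p53- Myc+ against p53- Rb- and 29.9% for p53- Rb- Myc+ against p53- arrays.

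Genes with the most similar profile were sought by Pearson's r over the 15 arrays for the 6 genes whose group means spanned at least 2 log2 units. The arrays with and without the Myc+ label form separate groups, so r was also taken over the 9 arrays without that label, as a description with no test. Ltf was most like Slc28a3 (r = 0.993, and 0.991 over the 9 arrays), Defb14 (0.990 and 0.979), Chil1 (0.987 and 0.978) and S100a8 (0.977 and 0.927). Muc1 was most like Hp (0.966 and 0.975), Naxe (0.964 and 0.977), Aldoc (0.963 and 0.980) and Yipf1 (0.961 and 0.975). Mfge8 was most like Ptprf (0.986 and 0.921), Plin3 (0.981 and 0.919), Sphk1 (0.979 and 0.895) and Stard3 (0.978 and 0.854). Btn1a1 was most like Vps37b (0.987 and 0.928), Clcf1 (0.985 and 0.874), Upp1 (0.981 and 0.812) and Tnfaip3 (0.979 and 0.802).

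For Lcn2 the most similar genes were Hspb1 (r = 0.995 over 15 arrays and 0.305 over 9), Cd9 (0.993 and 0.227), Cd24a (0.992 and 0.273) and Itga3 (0.992 and -0.325). For Csn3 they were Aldh3a2 (0.993 and 0.712), Epha1 (0.991 and 0.815), Ttc9 (0.991 and 0.471) and Dynap (0.991 and 0.509). Hp encodes haptoglobin, a haemoglobin-binding acute-phase protein, and its intensities were 46, 46.1 and 72.8 in p53- Rb- Myc+, 18.6, 22 and 26.4 in p53- Myc+, 369, 303 and 315 in p53- Rb-, 70.7, 40.7 and 39.3 in p53- and 345, 333 and 394 in WT arrays, low in the same 3 groups as Muc1.

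Other antimicrobial and acute-phase secretory genes, 23 of 24 listed being measured, gave 13 that fell (56.5%, against 9.72% of all genes) and 1 that rose (4.35%, against 19.3%) in p53- against WT arrays. Their median change there was -0.63, and that of all genes 0.12. The listed symbol not found was Chi3l1, so Chil1, named above, is in none of these counts. In p53- Rb- against p53- arrays 4 rose and 4 fell, 17.4% each, against 9.36% and 10.4% of all genes, with medians of -0.01 and -0.08. In p53- Myc+ against p53- arrays 2 rose (8.7%, against 13.1%) and 12 fell (52.2%, against 20.2%), with medians of -0.72 and -0.09. In p53- Rb- Myc+ against p53- Rb- arrays 3 rose (13%, against 17.6%) and 9 fell (39.1%, against 18.7%), with medians of -0.26 and 0.12. In p53- Rb- Myc+ against p53- Myc+ arrays 5 rose (21.7%, against 3.29%) and 1 fell (4.35%, against 1.4%), with medians of 0.20 and 0.05. Wfdc2 encodes a secreted protein with whey-acidic-protein domains. It had 14.8, 17.5 and 27.2 in p53- Rb- Myc+ and 12, 0.811 and 11.7 in p53- Myc+ arrays, against 3271, 3278 and 3067 in p53- Rb-, 3293, 3303 and 3093 in p53- and 3246, 3676 and 3222 in WT arrays, the split by the Myc+ label seen for Csn3. Wfdc2 fell in p53- Myc+ relative to p53- arrays (-7.11 ± 0.19, adjusted p = 5.13e-18).

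Wfdc18, of the same domain family as Wap, averaged 21.1 ± 3.31 in p53- Rb- Myc+ and 13.1 ± 2.51 in p53- Myc+ arrays, against 3055 ± 639.8 in p53- Rb-, 862 ± 567 in p53- and 3050.1 ± 419 in WT arrays. It fell in p53- relative to WT (-2.00 ± 0.29, adjusted p = 3.39e-05) and rose in p53- Rb- relative to p53- arrays (1.99 ± 0.29, adjusted p = 5.37e-05), as Muc1 did. S100a8, a subunit of calprotectin, had 161, 188 and 179 in p53- Rb-, 801, 353 and 305 in p53- and 3088, 2895 and 2699.8 in WT arrays. It fell in p53- relative to WT (-2.66 ± 0.24, adjusted p = 1.45e-07) and again in p53- Rb- relative to p53- arrays (-1.26 ± 0.24, adjusted p = 0.000891). Pglyrp1, which binds bacterial peptidoglycan, averaged 73.9 ± 10.5 in p53- Rb-, 140.2 ± 53.2 in p53- and 1038 ± 173 in WT arrays and fell in p53- relative to WT arrays (-2.80 ± 0.24, adjusted p = 6.77e-08).

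**Figure D4:**
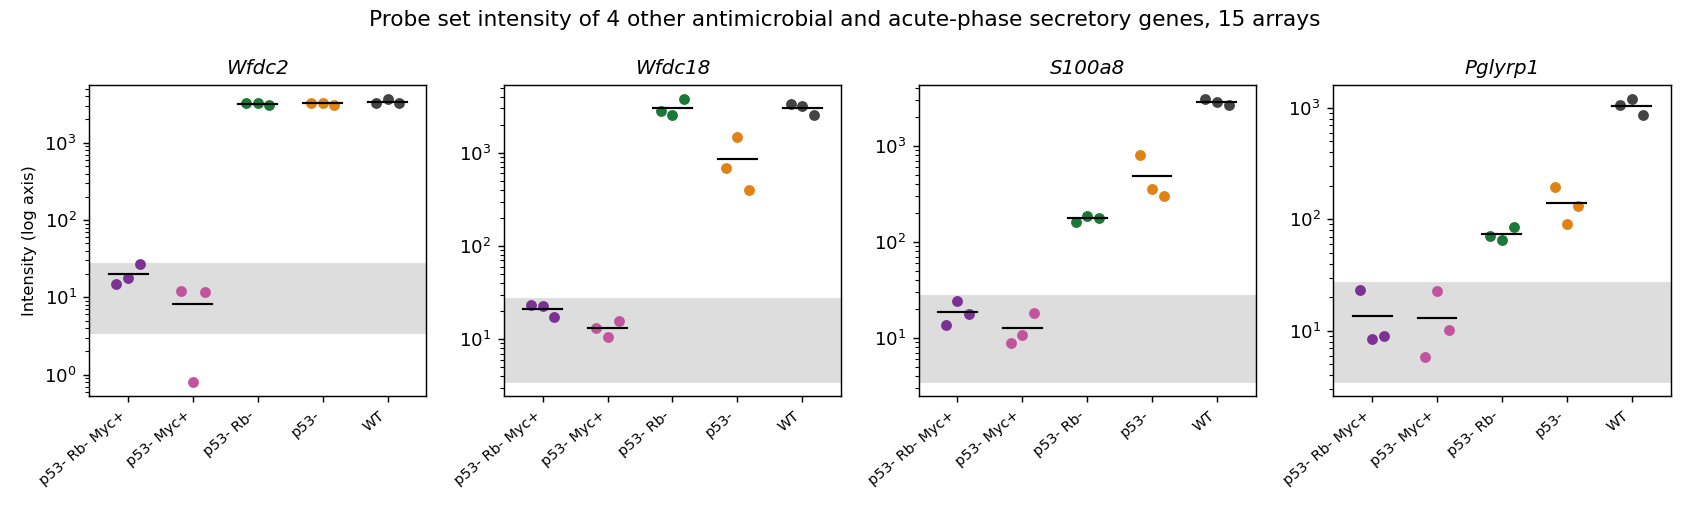
Probe set intensity (vertical log axis) of Wfdc2, Wfdc18, S100a8 and Pglyrp1 in the 15 arrays; points are arrays, black lines the means of the 3 arrays of a group, and the grey band the range of 3 Y-linked genes (3.50 to 27.1). All 4 were at or below 27.2 in the 6 arrays labelled Myc+, and S100a8 and Pglyrp1 were higher in WT arrays than in every other array.

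Because Ltf, Lcn2, S100a8 and Pglyrp1 are also neutrophil products, leukocyte markers were read beside them. Over 10 neutrophil markers, summed intensity was 320 to 370 in p53- Rb- Myc+, 254 to 308 in p53- Myc+, 431 to 459 in p53- Rb-, 640 to 1251 in p53- and 3717 to 4202 in WT arrays. Like Ltf, the sum was highest in WT arrays and lowest with the Myc+ label. Unlike Ltf, which overlapped between p53- and p53- Rb- arrays, it was higher in p53- arrays. Most of the WT sum came from S100a8 (2894 ± 194) and S100a9 (776 ± 80.4). The granule and surface markers Mpo (14.8 ± 3.88), Ngp (10.6 ± 3.19) and Ly6g (4.67 ± 4.36), 3 of the 10, were below the highest Y-linked value in all WT arrays. The other 5, Elane (61 ± 17.2), Mmp8 (54 ± 31.8), Retnlg (51.7 ± 8.01), Csf3r (40.7 ± 6.24) and Camp (40.5 ± 1.48), were above it in all WT arrays. In p53- against WT arrays 3 of the 10 neutrophil markers fell (30%, against 9.72% of all genes) and 2 rose (20%, against 19.3%), the latter near the share of all genes. Over 8 macrophage markers the sums were 269 to 290 in p53- Rb- Myc+, 199 to 217 in p53- Myc+, 725 to 809 in p53- Rb-, 542 to 655 in p53- and 1984 to 2375 in WT arrays. Cd14 (1566 ± 193 in WT arrays) led that sum, while Ptprc (19.6 ± 3.73) and Itgam (19.8 ± 0.300), found on leukocytes in general and on myeloid cells, were in the range of the Y-linked genes in WT arrays. Lyz2, the lysozyme of macrophages, was not: it averaged 5.56 ± 2.09 in p53- Rb- Myc+, 2.6 ± 1.58 in p53- Myc+, 77.3 ± 29.2 in p53- Rb-, 17.9 ± 6.87 in p53- and 289 ± 57.5 in WT arrays. Cd68 averaged 96.9 ± 20.2 in p53- Rb-, 65.1 ± 7.89 in p53- and 128 ± 2.59 in WT arrays. Csf1r (61.6 ± 6.58) and Mrc1 (33.9 ± 5.86) were also above the highest Y-linked value in all WT arrays. Adgre1 (46.7 ± 22.0) was above it in all WT arrays but replicate 3. Ptprc averaged 43.1 ± 17.7 in p53- arrays, more than in WT arrays. In p53- against WT arrays 4 of the 8 macrophage markers fell (50%, against 9.72% of all genes) and 1 rose (12.5%, against 19.3%). The part of leukocyte RNA in the changes of Ltf and Lcn2 was not tested. Fibroblast markers (8 genes) summed to 3109 to 4009 in p53- Rb- Myc+, 4451 to 5213 in p53- Myc+, 5778 to 7299 in p53- Rb-, 3197 to 3447 in p53- and 3567 to 4044 in WT arrays. Of these 8, 5 rose (62.5%, against 9.36% of all genes) and 0 fell (against 10.4%) in p53- Rb- against p53- arrays. The 5 measured adipocyte markers summed to 171 to 250 in p53- Rb- Myc+, 172 to 201 in p53- Myc+, 334 to 404 in p53- Rb-, 286 to 380 in p53- and 418 to 565 in WT arrays. The part of fibroblast or adipocyte RNA in the changes of Mfge8, Xdh and Btn1a1 was not tested.

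Of 30 other milk protein, milk fat and lactose genes 28 were measured. In p53- against WT arrays 2 rose (7.14%, against 19.3% of all genes) and 7 fell (25%, against 9.72%), with a median change of -0.32 where all genes had 0.12. In p53- Rb- against p53- arrays 5 rose (17.9%, against 9.36%) and 2 fell (7.14%, against 10.4%), with medians of 0.08 and -0.08. In each comparison of the Myc+ label 5 rose (17.9%) and 10 fell (35.7%). All genes had 13.1% rising and 20.2% falling in p53- Myc+ against p53- arrays, and 17.6% rising and 18.7% falling in p53- Rb- Myc+ against p53- Rb- arrays, so the share that rose in the second was near that of all genes. In p53- Rb- Myc+ against p53- Myc+ arrays 1 rose and 1 fell (3.57% each, against 3.29% and 1.4%), also near the shares of all genes. Plin2, which coats cytoplasmic lipid droplets, averaged 455 ± 36.7 in p53- Rb- Myc+, 439 ± 25.3 in p53- Myc+, 1549 ± 194 in p53- Rb-, 2040.1 ± 228 in p53- and 2118 ± 192 in WT arrays and fell with the Myc+ label in cells without p53 (-2.17 ± 0.16, adjusted p = 1.38e-10). Lpl, the lipase that frees fatty acids from lipoproteins, did the reverse, rising in p53- Myc+ relative to p53- arrays (2.12 ± 0.16, adjusted p = 1.87e-10) with averages of 773 ± 55.8 in p53- Myc+ and 166 ± 11.7 in p53- arrays. Dgat1, which makes triglycerides, fell in p53- relative to WT (-0.86 ± 0.17, adjusted p = 0.000618) and rose in p53- Rb- relative to p53- arrays (0.70 ± 0.17, adjusted p = 0.00488), the signs seen for Mfge8 and Xdh. Glycam1, a mucin-like whey protein, fell in p53- Rb- relative to p53- (-0.84 ± 0.18, adjusted p = 0.00235) and relative to WT arrays (-1.03 ± 0.18, adjusted p = 0.000618), as Btn1a1 did.

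Among 16 other mucins 13 were measured. In p53- against WT arrays 2 rose and 2 fell (15.4% each, against 19.3% and 9.72% of all genes). In p53- Rb- against p53- arrays 1 rose (7.69%, against 9.36%) and 3 fell (23.1%, against 10.4%). In p53- Myc+ against p53- arrays 1 rose (Prg4, 7.69%, against 13.1%) and 5 fell (38.5%, against 20.2%). Of the mucins 2 rose (15.4%, against 17.6%) and 4 fell (30.8%, against 18.7%) in p53- Rb- Myc+ against p53- Rb- arrays, although the median change was 0.32, against 0.12 for all genes. Only 1 rose (Prg4, 7.69%, against 3.29%) and 0 fell in p53- Rb- Myc+ against p53- Myc+ arrays. With so few mucins, 1 gene is 7.69% of the list, and several of these shares lie within about that much of the share of all genes. Muc20, another membrane mucin, averaged 36.4 ± 2.57 in p53- Rb- Myc+, 32.9 ± 9.8 in p53- Myc+, 119 ± 11.8 in p53- Rb-, 54.6 ± 6.09 in p53- and 172 ± 18.7 in WT arrays. Like Muc1, it fell in p53- relative to WT (-1.41 ± 0.17, adjusted p = 4.24e-06) and rose in p53- Rb- relative to p53- arrays (0.93 ± 0.17, adjusted p = 0.000447). Prg4, the joint lubricant lubricin, had 853, 895 and 1031 in p53- Rb- Myc+ and 114, 116 and 148 in p53- Myc+ arrays, against 20.4 to 64.9 in the other 9, and rose in p53- Rb- Myc+ relative to p53- Myc+ arrays (2.73 ± 0.19, adjusted p = 7.3e-10). The gel-forming Muc5ac and Muc6 were called in none of the 7 comparisons.

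Known regulators of milk and acute-phase genes, 22 of 24 being measured, showed 4 that rose (18.2%, against 19.3% of all genes) and 10 that fell (45.5%, against 9.72%) in p53- against WT arrays. In p53- Rb- against p53- arrays 6 rose (27.3%, against 9.36%) and 3 fell (13.6%, against 10.4%). In p53- Myc+ against p53- arrays 1 rose (4.55%, against 13.1%) and 12 fell (54.5%, against 20.2%), with a median of -0.43 where all genes had -0.09. Among p53- Rb- cells the Myc+ label went with 2 that rose (9.09%, against 17.6%) and 14 that fell (63.6%, against 18.7%), with medians of -0.72 and 0.12. Finally, 1 rose and 1 fell (4.55% each, against 3.29% and 1.4%) in p53- Rb- Myc+ against p53- Myc+ arrays. Gata3, a transcription factor of the luminal lineage, had 2.23, 14.7 and 11.8 in p53- Rb- Myc+ and 5.42, 4.27 and 1.05 in p53- Myc+ arrays, against 416, 381 and 438 in p53- Rb-, 321, 463 and 323 in p53- and 547, 445 and 571 in WT arrays. The epithelial ETS factor Ehf fell in p53- relative to WT (-1.27 ± 0.21, adjusted p = 0.000116) and in p53- Myc+ relative to p53- arrays (-3.46 ± 0.21, adjusted p = 4.59e-12). Cish and Socs2 are induced by STAT5 and dampen cytokine signalling. Cish fell with the Myc+ label (-2.14 ± 0.21, adjusted p = 1.98e-08 in p53- Myc+ against p53- arrays), and Socs2 had 205, 256 and 253 in p53- Rb- Myc+ and 29.6, 26.6 and 33 in p53- Myc+ arrays, against 239, 244 and 240.4 in p53- Rb-, 398, 485 and 373 in p53- and 317, 330.4 and 395 in WT arrays. Socs2 rose with the Rb- label among arrays labelled Myc+ (2.47 ± 0.16, adjusted p = 2.02e-10), as Lcn2 did, and fell with it among the others (-0.75 ± 0.16, adjusted p = 0.0019). The difference between these changes was 3.22 ± 0.22, adjusted p = 2.5e-09. Cish was not called with the Rb- label among arrays labelled Myc+ (0.41 ± 0.21, adjusted p = 0.365). Its difference of the Rb comparisons was 0.22 ± 0.29, adjusted p = 0.658.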

How the data were processed

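The deposited values were linear intensities, 1 per probe set and array. The authors made them with Affymetrix Expression Console 1.1 according to the submitters' processing notes. How probes were summarised and arrays scaled, and the genome build, is not given in the sources used here. Per the labels' protocols, a WT-Ovation Pico kit amplified the RNA. Of 35556 probe sets, 21789 named 1 gene symbol, 1621 named several and 12146 were not listed in the platform annotation. For 999 of 19938 genes with several such probe sets, the one with the highest mean over all arrays stood for the gene. Because they were linear, log2 of the value plus 16 was fitted with 1 mean per group in limma 3.58.1 (R 4.3.3; functions lmFit and eBayes; residual degrees of freedom 10, prior 11.8), 2-sided, with Benjamini-Hochberg adjustment over all genes and a call at an adjusted p under 0.05. The procedure was tested on simulated data. The number of arrays, 3 per group, limits the precision, and no scan dates or batches were given.

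The genes, lists, comparisons and tests were chosen with earlier results of these data known. All listed members are named; of each other list up to 4 genes with the widest span of group means at or above the median level; and 4 similar genes per member. The cell type markers are those of luminal, basal, neutrophil, macrophage, adipocyte and fibroblast cells. Deviations from the group mean were correlated between arrays of the same replicate number. In all 3 pairs r was above 0.1 (0.102, 0.192 and 0.379) when p53- Rb- Myc+ was set against p53- Myc+, and for no other 2 groups. It was above 0 in all 3 pairs for p53- Rb- set against p53- Myc+ (0.113, 0.007 and 0.171). The same held for p53- Rb- set against p53- Rb- Myc+ (0.036, 0.056 and 0.218). The labels give no pairing, the main fit used none, and the replicate block covered all groups. Alternatives were 1 or 64 added, median centring, quantile normalization, array weights, a replicate block, a filter on dim genes, all probe sets, only the groups compared and each array left out.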

Additional observations from a re-analysis of the deposited data

Results flagged for a closer look

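For 3 genes the change with the Rb- label differed between arrays with and without the Myc+ label, by the test of the difference in the limma fit of all genes. The difference was -3.79 for Muc1 (adjusted p = 3.3e-09), where all 3 p53- Rb- arrays lay above all 3 p53- arrays while p53- Rb- Myc+ and p53- Myc+ arrays overlapped. All of these arrays but the p53- Rb- ones were at or below the highest Y-linked value, and with 1 or 64 added the difference was -4.39 or -2.73. For Lcn2 the difference was 2.30 (adjusted p = 2.68e-07), with all 3 p53- Rb- Myc+ arrays above all 3 p53- Myc+ arrays. For Btn1a1 the difference was 1.24 (adjusted p = 0.00154), but every array labelled Myc+ was below the highest Y-linked value, and with 1 or 64 added the difference was 3.35 or 0.59. With 1 added, Btn1a1 was also called in p53- Rb- Myc+ against p53- Myc+ arrays (2.39, adjusted p = 0.000597). With 3 arrays per group, no single array was tested as an outlier.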

How the results depend on the processing

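Of 63 changes tested (9 genes in 7 comparisons), 48 kept their call in all alternatives and 15 did not, and 0 changed sign while called. The number of the 9 genes called in p53- Rb- against WT arrays was 4, but 2 with 1 added, where Btn1a1 and Xdh lost their calls. It was also 2 among genes at or above the median level, because that filter left out Ltf and Btn1a1. Csn3 and Xdh kept their calls there. Over all 19938 genes 2903 were called in that comparison and 2185 with 1 added, and 2750 of the 9969 genes that the filter kept. In p53- Rb- Myc+ against p53- Myc+ arrays 2 of the 9 genes were called, but 4 with 1 added, 1 when only these groups were fitted and 1 to 2 with 1 array left out. Over all genes 935 were called there, 870 with 1 added, 720 when only these groups were fitted and 649 to 1032 with 1 array left out.

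Calls over all genes also moved under other alternatives. For p53- Rb- against p53- arrays 3950 genes were called, 8518 with array weights and 2098 to 4725 with 1 array left out (2483 and 2130 when p53- replicate 1 or 3 was left out, 2098 without p53- Rb- replicate 3). For p53- Rb- against WT arrays 2903 were called, 5254 with array weights and 1697 to 3167 with 1 left out (1700 without WT replicate 2, 1736 without p53- Rb- replicate 1, 1697 without p53- Rb- replicate 2). For the difference of the Rb comparisons 2719 were called, 5404 with array weights and 1762 to 3234 with 1 left out (1762 without p53- replicate 3, 1795 without p53- Rb- Myc+ replicate 2). For p53- against WT arrays 5780 were called, and 3470 (without p53- replicate 3) to 6094 with 1 left out.

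The replicate block, fitted over all groups, changed 0 of the 63 calls. With it 931 of all genes were called in p53- Rb- Myc+ against p53- Myc+ arrays, and 935 without it. Without the 6 arrays labelled Myc+, an alternative added after seeing the data, 6, 4 and 4 of the 9 genes were called in p53- against WT, p53- Rb- against p53- and p53- Rb- against WT arrays, as with them. Over all 19938 genes, 3695 were then called in p53- Rb- against p53- arrays, against 3950 with them. In p53- Rb- against WT arrays 2630 were called, against 2903 with them. Dim probe sets limit what can be said of Muc1, Ltf, Csn3 and Btn1a1 in the arrays labelled Myc+, of Muc1 in the p53- arrays too and of Wap in all groups.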
